A study of Mus musculus with 6 samples.

Results

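The genes described here are those whose reads in mouse hippocampus stood higher after postnatal immune activation than in every library without it or with interleukin-27 added. They were chosen from a deposited table of 3733 genes. A gene entered when the lower of the 2 PIA libraries, plus 1, was at least 1.5 times the highest of the other 4 libraries, plus 1, and when both PIA libraries held at least 20 normalized reads. This gave 78 genes. The MHC genes named H2, the Gbp, Ifit, Ccl, Cxcl and Serpina3 families and 8 single genes were set aside by name (18 genes), which left 60. The choice used the PIA libraries against both other groups, so the height of PIA in these 60 genes is a description of how they were picked and carries no test.

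The RNA came from 3 groups of 2 hippocampus libraries each. In the PIA+IL-27 group the mice had immune activation and recombinant interleukin-27, a cytokine of the interleukin-12 family. In the PIA group (postnatal immune activation, whose libraries are named lps after the bacterial wall component lipopolysaccharide) they had the activation alone, and the third group is labelled Control. The labels give no strain, age, sex, dose, interval or number of animals per library, and p-values cover only the spread between these libraries. The PIA+IL-27 replicates were not the same RNA, since their reads of Y-linked genes, described below, were 1476 and 6.80. In PIA and Control it is not known whether the replicates were separate animals, and their spread may be technical.

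The table sets limits on every value. Each of the 3733 genes has, in 1 or more of the 3 comparisons, an authors' log2 fold change of 1 or beyond in either direction and a Q value no higher than 0.05, and genes without such a comparison are not listed. The listed genes held 641672 to 1593441 reads per library, and FPKM values of 25 genes placed the depth of the libraries at 14622472 to 15863269 reads. The replicates differed in tissue markers: those of neocortex summed to 8107 normalized reads in PIA+IL-27 1 and 5378 in PIA 2, against 1087 to 2559 in the other 4 libraries. Prox1, which marks the dentate gyrus of the hippocampus, was lowest in the same pair, at 172 and 96.0, against 589.7 to 1358 elsewhere. Choroid plexus markers summed to 60573 in Control 2 and 11696 in PIA 1, against 70.9 to 802 elsewhere. The Y-linked genes Kdm5d, Ddx3y, Eif2s3y and Uty together held 541 to 1476 normalized reads in both PIA libraries and PIA+IL-27 1, and 2.94 to 9.52 in PIA+IL-27 2 and both Control libraries. Y-linked genes are read in male tissue, and both PIA libraries had these reads while both Control libraries nearly lacked them. Sex and immune activation therefore cannot be told apart in PIA against Control. The part of the other differences in the results below was not tested.

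Lipopolysaccharide is sensed by Toll-like receptors, which switch on NF-kB and the production of interferons and other cytokines. Interferons act through receptors on the cell surface, and promoters of the genes they induce often carry a palindromic DNA element called GAS or an element called ISRE, which interferon regulatory factors bind. The genes switched on in this way cut and display peptides on MHC class I, attack intracellular microbes and recruit leukocytes, and in the brain microglia, vessel cells and cells of the meninges all take part. In RNA from whole tissue, more cells of a kind and more RNA per cell cannot be told apart.

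GAS and ISRE stood together in the promoters of 3 genes, all of them interferon-inducible GTPases. RefSeq promoter windows on GRCm38.p6 run from 250 bases before to 50 bases after each gene start and were found for 48 of the 60 genes, in 67 windows. Capitals mark matches, on either strand, to GAS (TTCNNNGAA) and to ISRE (GAAA, any 2 bases and GAAA, or TTTC, any 2 bases and TTTC on the other strand). The windows of Gm12250 (chr11:58183593-58183892, plus strand; RefSeq also calls it Irgb10), Irgm2 (chr11:58214727-58215026, plus strand) and Tgtp1 (chr11:48992197-48992496, minus strand) read as follows.
Gm12250: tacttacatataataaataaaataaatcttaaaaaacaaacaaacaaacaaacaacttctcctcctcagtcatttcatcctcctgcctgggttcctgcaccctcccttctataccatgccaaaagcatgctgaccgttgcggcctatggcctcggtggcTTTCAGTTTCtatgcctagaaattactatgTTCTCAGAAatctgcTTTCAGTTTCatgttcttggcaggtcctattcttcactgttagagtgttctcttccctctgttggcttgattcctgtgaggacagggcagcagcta
Irgm2: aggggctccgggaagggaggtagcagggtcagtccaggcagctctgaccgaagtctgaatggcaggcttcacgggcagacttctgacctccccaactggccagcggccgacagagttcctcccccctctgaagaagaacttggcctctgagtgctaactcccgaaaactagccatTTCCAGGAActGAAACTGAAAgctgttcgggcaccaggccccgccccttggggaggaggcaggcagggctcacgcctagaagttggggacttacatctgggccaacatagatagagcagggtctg
Tgtp1: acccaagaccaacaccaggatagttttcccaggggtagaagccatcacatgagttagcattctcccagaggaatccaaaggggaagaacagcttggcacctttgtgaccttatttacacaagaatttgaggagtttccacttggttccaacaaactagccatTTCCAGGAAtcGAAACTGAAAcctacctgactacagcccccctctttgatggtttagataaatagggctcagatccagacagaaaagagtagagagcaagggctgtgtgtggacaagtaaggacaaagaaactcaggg

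In Irgm2 and Tgtp1 the GAS match began 11 bases before the ISRE match, with first bases 75 and 64 bases before the start of Irgm2 and 88 and 77 bases before that of Tgtp1. In Gm12250 the GAS match lay between 2 ISRE matches. Both elements together stood in 3 of 67 windows of the 60 genes (4.48%), in 0.664% of the 3612 windows of listed genes and in 0.454% of all 32851 windows. GAS alone or with ISRE was matched in 10 windows of 9 genes (14.9%, against 8.83% of listed windows and 8.30% of all windows). ISRE was matched in 5 windows (7.46%, against 4.845% of listed windows and 3.44% of all windows). A match is a description of letters, not a binding site.

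GAS matches also lay in the windows of the transcription factor Irf1 (chr11:53769764-53770063, plus strand), the immunoproteasome gene Psmb8 (chr17:34197945-34198244, plus strand) and the adhesion gene Icam1 (chr9:21015690-21015989, plus strand). These 3 are shown as examples from the regulators, the peptide processing genes and the adhesion genes described below. Each was the only gene of its group with a GAS match, so the match is not typical of these groups. The windows of Stat5a, Psmb9, Tap1, Gm8909 and Madcam1 held none. No window was found for Batf2, Tap2 and Selplg. Qprt, Sphk1 and Themis2, from other groups, also had GAS matches.
Irf1: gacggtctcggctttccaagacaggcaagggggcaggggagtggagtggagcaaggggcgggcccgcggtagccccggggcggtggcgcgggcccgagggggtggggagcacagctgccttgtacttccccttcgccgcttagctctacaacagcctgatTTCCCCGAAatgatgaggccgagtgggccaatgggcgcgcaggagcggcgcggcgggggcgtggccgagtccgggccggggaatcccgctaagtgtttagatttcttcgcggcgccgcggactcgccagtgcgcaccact
Psmb8: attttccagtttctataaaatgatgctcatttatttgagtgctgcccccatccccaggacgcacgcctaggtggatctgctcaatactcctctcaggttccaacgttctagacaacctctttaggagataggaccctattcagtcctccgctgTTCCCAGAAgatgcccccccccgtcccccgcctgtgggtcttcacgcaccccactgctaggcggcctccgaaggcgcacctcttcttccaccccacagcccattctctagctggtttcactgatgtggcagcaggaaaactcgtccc
Icam1: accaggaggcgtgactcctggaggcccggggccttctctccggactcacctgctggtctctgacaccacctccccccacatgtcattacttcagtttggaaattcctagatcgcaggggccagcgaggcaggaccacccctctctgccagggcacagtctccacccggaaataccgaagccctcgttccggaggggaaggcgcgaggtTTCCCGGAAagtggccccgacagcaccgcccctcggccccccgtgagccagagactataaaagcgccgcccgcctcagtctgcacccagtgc

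A decamer bound by NF-kB (GGG, any 2 bases and TTTCC, or GGAAA, any 2 bases and CCC on the other strand) was matched in 5 of the 67 windows (7.46%), in 2.49% of listed windows and in 1.63% of all windows. The 5 genes were Madcam1, Hpn and the transporters Slc22a2, Slc6a12 and Slc6a13. No gene of the group described below as NF-kB targets and inflammasome genes had a match. Madcam1, the adhesion molecule that leukocytes bind on vessel walls, is shown (chr10:79664309-79664608, plus strand) since it had 2 matches, whose first bases lay 83 and 70 bases before the start. The letters AGGAAGT of the myeloid factor PU.1 (ACTTCCT on the other strand) were matched in 10.4% of the windows of the 60 genes. The share was 10.7% of listed windows and 9.35% of all windows.
Madcam1: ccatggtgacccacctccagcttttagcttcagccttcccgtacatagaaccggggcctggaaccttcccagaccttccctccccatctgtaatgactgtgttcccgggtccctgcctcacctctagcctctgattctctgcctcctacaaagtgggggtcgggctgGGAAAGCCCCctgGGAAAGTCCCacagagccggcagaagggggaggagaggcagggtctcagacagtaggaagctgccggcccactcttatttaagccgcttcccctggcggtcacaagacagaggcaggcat

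**Figure D1:**
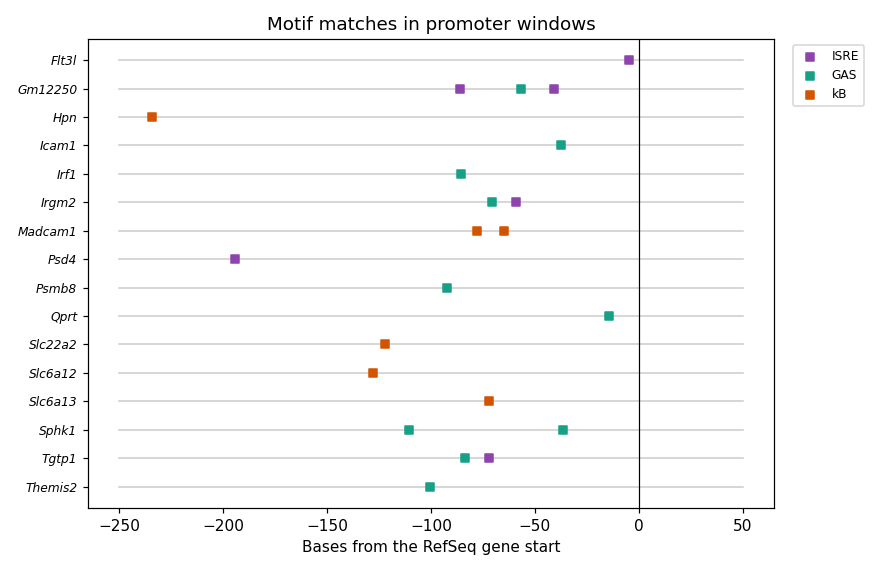
Matches to ISRE, GAS and the NF-kB decamer in the RefSeq promoter windows of 16 of the 60 genes. The horizontal axis is the distance in bases from the gene start, each row is 1 gene and each square is the middle of a match. Gm12250, Irgm2 and Tgtp1 carry both ISRE and GAS matches, and the pair of squares of Sphk1 is 1 site seen from 2 annotated starts.

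The 60 genes divided by known function into 10 groups, formed after their names were seen. Across them the mean of the PIA libraries was a median of 3.03 times the mean of Control (range 1.76 to 18.5), while the median of all listed genes was 0.631. The mean of PIA+IL-27 was a median of 0.309 times the mean of PIA (range 0.114 to 0.545), while the median of all listed genes was 2.23. Both comparisons share the PIA libraries and both were used to choose the genes. Over the whole table, 408 genes (10.9%) had both PIA libraries above the other 4.

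**Figure D2:**
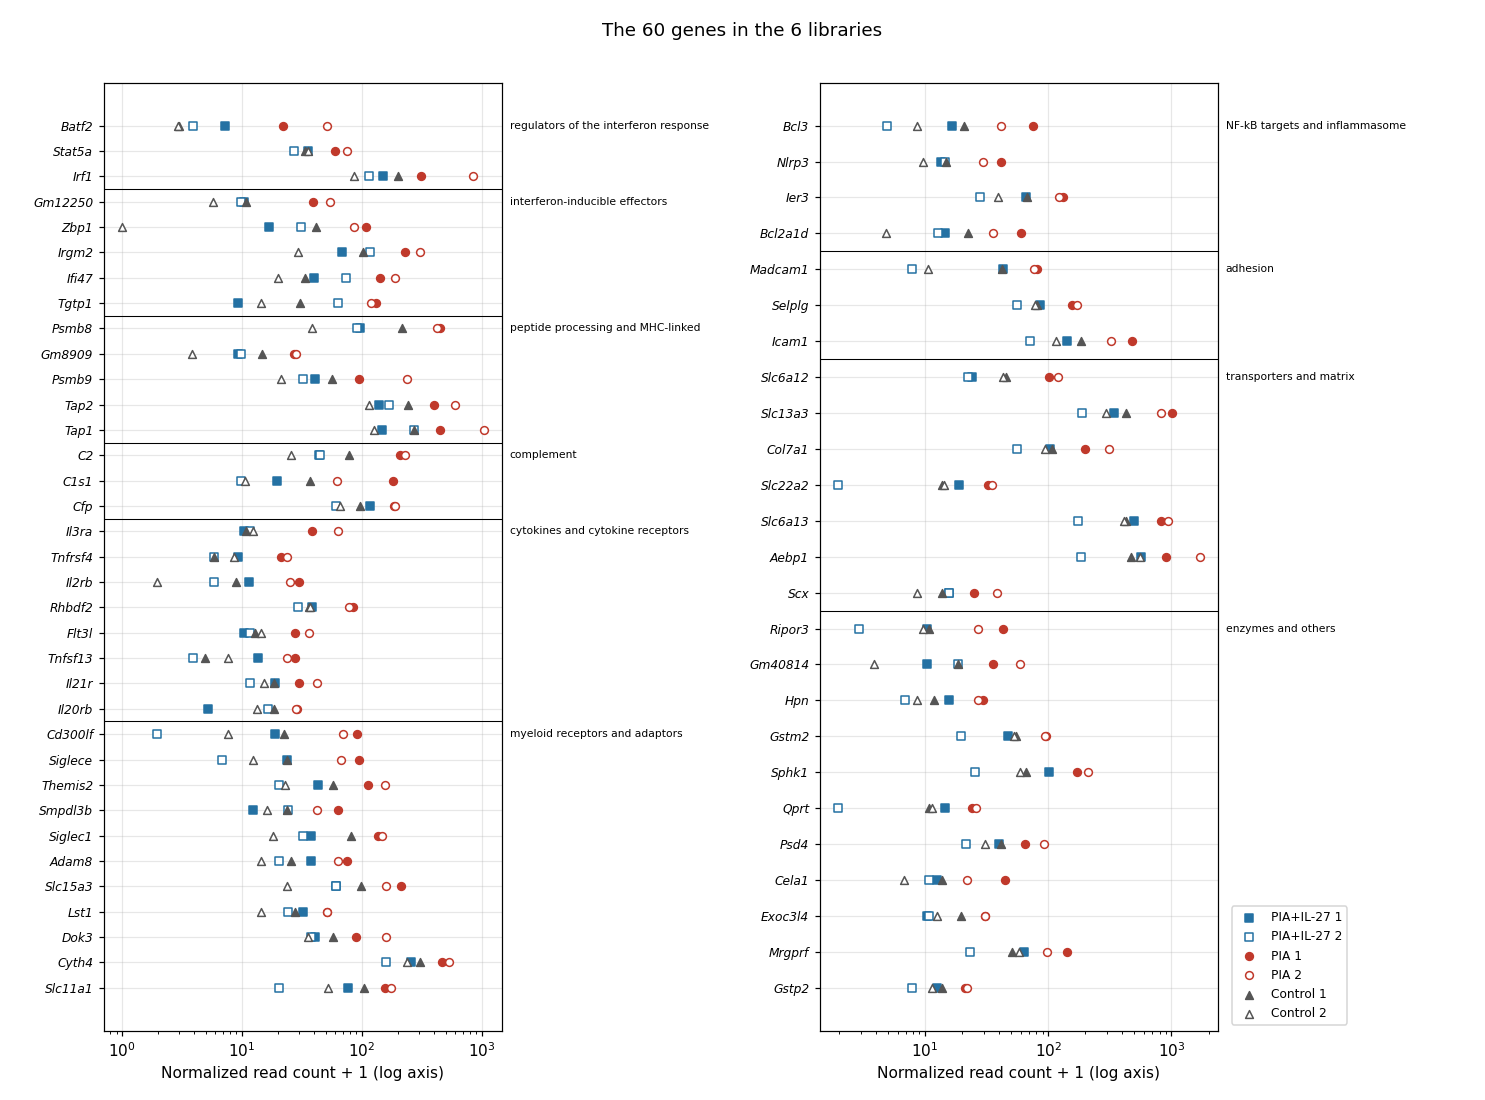
Normalized read count plus 1 (log axis) of the 60 genes in each library, grouped by function. Filled and open symbols are replicates 1 and 2 of PIA+IL-27, PIA and Control, and the PIA circles lie to the right in every row because the genes were chosen that way.

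Of the 3 genes grouped as regulators of the interferon response, Irf1 was the most abundant, at 31.3 TPM on average in PIA. Batf2 had the widest gap between groups. Irf1, an interferon regulatory factor that binds ISRE, had 149 and 113 normalized reads in PIA+IL-27, 307 and 847 in PIA and 198 and 84.7 in Control. PIA 2 stood far above PIA 1 here, and even PIA 1 was 1.55 times the highest other library on the scale of reads plus 1. Batf2, a leucine zipper partner of AP-1 factors that interferon induces, had 6.26 and 2.91 in PIA+IL-27, 21.1 and 50.2 in PIA and 1.96 and 1.90 in Control. The PIA libraries thus held 68 reads of Batf2 in all and the Control libraries 4, so that its ratio of means, the highest of the 60 genes, rests on very few Control reads. Stat5a, which carries signals from cytokine receptors, was closer between groups, its PIA mean being 1.99 times that of Control, and its counts were not whole. All 3 were higher in PIA 2, the library with high neocortex markers, than in PIA 1.

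The 5 interferon-inducible effectors had a median of PIA over Control of 5.84, the highest of the 10 groups, with a range of 4.06 to 6.38. Ifi47, Irgm2, Tgtp1 and Gm12250 are immunity-related GTPases, which attack the membranes around intracellular microbes. Ifi47 had 38.6 and 72.8 normalized reads in PIA+IL-27, 141 and 187 in PIA and 32.3 and 19.04 in Control. Irgm2, a regulator of the other GTPases, had 66.7 and 117 in PIA+IL-27, 229 and 301 in PIA and 102 and 28.6 in Control. In both genes PIA+IL-27 2 was the highest library outside PIA. Tgtp1 had 8.34 and 62.1 in PIA+IL-27, 131 and 119 in PIA and 29.4 and 13.3 in Control, so that the PIA+IL-27 replicates differed widely from each other while the PIA replicates were close. Its counts were not whole numbers in the table, and reads that may be shared with near-identical copies leave its level uncertain. Gm12250 had 9.38 and 8.74 in PIA+IL-27, 38.4 and 53.5 in PIA and 9.79 and 4.76 in Control, the largest ratio of the lower PIA library to the highest other library of all 60 genes (3.65). Zbp1, a sensor of Z-form nucleic acids that starts inflammatory cell death, had 15.6 and 30.1 in PIA+IL-27, 107 and 85.1 in PIA and 40.2 and 0 in Control; no read was counted in Control 2.

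Of the 5 peptide processing and MHC-linked genes, the 4 with a known role lie side by side on chromosome 17 in RefSeq order, as Psmb9, Tap1, Psmb8 and Tap2. Psmb8 and Psmb9 encode catalytic subunits of the immunoproteasome, which cuts proteins into peptides for MHC class I. Psmb8 had 95.9 and 89.3 normalized reads in PIA+IL-27, 444 and 425 in PIA and 216 and 37.1 in Control. Its PIA replicates were nearly equal, while Control 1 lay far above Control 2. Psmb9 had 39.6 and 31.1 in PIA+IL-27, 93.2 and 235 in PIA and 54.9 and 19.996 in Control. Tap1 and Tap2 form the pump that carries these peptides into the endoplasmic reticulum. Tap1 had 147 and 269.9 in PIA+IL-27, 448 and 1033 in PIA and 269 and 125 in Control, and Tap2 had 139 and 166 in PIA+IL-27, 399 and 590.2 in PIA and 239 and 114 in Control. PIA 2 exceeded PIA 1 in Psmb9, Tap1 and Tap2, and Control 1 exceeded Control 2 more than 2-fold in all 5 genes. The fifth, Gm8909, had non-whole counts and 25.9 and 27.3 reads in PIA. RefSeq places the starts of Tap1 and Psmb9 on opposite strands with windows that overlap by 275 bases, and neither window held a GAS or ISRE match. The group's PIA mean was a median of 3.43 times Control, and its PIA+IL-27 mean a median of 0.282 times PIA.

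Complement was represented by 2 genes of the classical route and 1 of the alternative route. C2, the protease precursor of the classical and lectin routes, had 42.8 and 43.7 normalized reads in PIA+IL-27, 208 and 227 in PIA and 77.4 and 24.8 in Control, and the PIA libraries were close to each other. C1s1, which encodes the C1s protease that cleaves C2 and C4, had 18.8 and 8.74 in PIA+IL-27, 181 and 61.1 in PIA and 36.2 and 9.52 in Control. Here PIA 1 was far above PIA 2, the counts were not whole, and reads shared with a near copy would leave the level uncertain. Cfp encodes properdin, which stabilizes the convertase of the alternative route, and had 115 and 59.2 in PIA+IL-27, 183 and 187 in PIA and 95.99 and 64.7 in Control. Its PIA mean was 2.30 times that of Control, the smallest of the 3.

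Cytokine ligands and receptors made up 8 genes, all low: their mean PIA level per length was between 0.700 TPM for Il2rb and 3.62 TPM for Il3ra. Il3ra, the interleukin-3 receptor alpha chain, had 9.38 and 10.7 normalized reads in PIA+IL-27, 37.5 and 62.2 in PIA and 9.79 and 11.4 in Control, with the 4 libraries outside PIA nearly equal. Il2rb, a subunit shared by the interleukin-2 and interleukin-15 receptors, had 10.4 and 4.85 in PIA+IL-27, 28.8 and 24.002 in PIA and 7.84 and 0.952 in Control. Tnfrsf4, the co-stimulatory receptor OX40, had 8.34 and 4.85 in PIA+IL-27, 20.2 and 22.9 in PIA and 4.90 and 7.62 in Control. These counts are small, and 1 read more or less moves the low libraries. Il21r, the interleukin-21 receptor, had 17.7 and 10.7 in PIA+IL-27, 28.8 and 41.5 in PIA and 17.6 and 14.3 in Control. Il20rb, a chain of receptors for the interleukin-20 family, had 4.17 and 15.5 in PIA+IL-27, 27.9 and 27.3 in PIA and 17.6 and 12.4 in Control. Ligands were Flt3l, a growth factor of dendritic cells, with 26.9 and 34.9 reads in PIA, and Tnfsf13, the B cell factor APRIL, with 26.9 and 22.9. Rhbdf2, which brings the TNF-releasing protease ADAM17 to the cell surface, had 83.6 and 77.5 in PIA. The counts of Tnfsf13 were not whole.

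The 11 myeloid receptors and adaptors included inhibitory as well as activating parts. Cd300lf, an inhibitory receptor of myeloid cells, had 17.7 and 0.971 normalized reads in PIA+IL-27, 89.4 and 68.7 in PIA and 21.5 and 6.67 in Control. Siglece, a sialic acid receptor that restrains microglia and neutrophils, had 22.9 and 5.83 in PIA+IL-27, 93.2 and 66.6 in PIA and 22.5 and 11.4 in Control. In both genes PIA 1 was above PIA 2 and PIA+IL-27 2 was the lowest library. Lst1, a small leukocyte protein encoded in the MHC region, had the highest level per length of the 60 genes (49.5 TPM in PIA) and 31.3 and 23.3 normalized reads in PIA+IL-27, 49.97 and 50.2 in PIA and 26.4 and 13.3 in Control. Cyth4, an exchange factor for ARF GTPases, had 257 and 156 in PIA+IL-27, 466 and 528 in PIA and 307 and 237 in Control, and Slc11a1, the metal pump NRAMP1 of phagosomes, had 75.1 and 19.4 in PIA+IL-27, 156 and 172 in PIA and 103 and 51.4 in Control. The others were Siglec1, Themis2, Smpdl3b, Adam8, Slc15a3 and Dok3, with ratios of the lower PIA library to the highest other library between 1.55 (Dok3) and 1.93 (Themis2). Control 1 was higher than Control 2 in all 11.

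Markers of leukocytes differed between the same libraries. Itgam, the integrin CD11b of microglia and other myeloid cells, had 350 and 116 normalized reads in PIA+IL-27, 1137 and 409 in PIA and 740.5 and 90.5 in Control. P2ry12, a marker of resting microglia, had 258 and 184 in PIA+IL-27, 9.61 and 56.7 in PIA and 14.7 and 232 in Control. These are the only 2 of the 8 microglia markers among the listed genes. For macrophages at the borders of the brain, 3 of 5 markers are listed. They summed to 370 and 171 in PIA+IL-27, 113 and 164 in PIA and 109 and 340 in Control, and 0 of them had both PIA libraries above the other 4. The 6 listed markers of neutrophils and monocytes, of 8, summed to 95.9 and 47.6 in PIA+IL-27, 1402 and 55.6 in PIA and 409 and 18.1 in Control. They were thus high in PIA 1 and Control 1 alone. The 3 listed T and NK cell markers, of 8, summed to at most 16.3 in any library; Nkg7 and Ncr1 had both PIA libraries above the other 4, while Cd8a did not, and no B cell marker is listed. On the separate list of lymphocyte genes, 5 of 6 had both PIA libraries above the other 4: Cd52, Rac2, Nkg7, Gzmb and Prf1. The 6 genes summed to 301 and 84.5 normalized reads in PIA+IL-27, 889 and 524 in PIA and 447 and 112 in Control. Most of these reads were from Rac2 and Cd52, which myeloid cells express too, and the killer cell genes Nkg7, Gzmb and Prf1 had at most 8.65 reads in any library. The part of these cells in the myeloid, cytokine and complement genes was not tested.

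The 4 NF-kB targets and inflammasome genes had higher levels in PIA 1 than in PIA 2. Bcl3, an IkB family member that acts in the nucleus with NF-kB p50 and p52, had 15.6 and 3.88 normalized reads in PIA+IL-27, 73.99 and 40.4 in PIA and 19.6 and 7.62 in Control. Nlrp3, the sensor of the inflammasome that activates caspase-1, had 12.5 and 13.6 in PIA+IL-27, 40.4 and 28.4 in PIA and 13.7 and 8.57 in Control. Ier3, an early response gene, had 129.7 and 122 in PIA, and Bcl2a1d, an anti-apoptotic relative of BCL2 with near-identical copies and non-whole counts, had 59.6 and 34.9. Adhesion was represented by Icam1, the endothelial ligand of leukocyte integrins, with 139.7 and 69.9 in PIA+IL-27, 481 and 321 in PIA and 185 and 115 in Control. Selplg, the leukocyte ligand of selectins, had 85.5 and 54.4 in PIA+IL-27, 156 and 169 in PIA and 80.3 and 77.1 in Control. Madcam1 had 80.7 and 76.4 in PIA, with PIA+IL-27 1 and Control 1 at nearly the same level below. In all 3 adhesion genes replicate 1 was higher than replicate 2 both in PIA+IL-27 and in Control.

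The 7 transporter and matrix genes held the largest sum of normalized reads of the 10 groups in PIA, 3087 in PIA 1 and 3955 in PIA 2. Slc6a12 and Slc6a13 encode carriers of betaine and of GABA and taurine, and RefSeq places them next to each other on chromosome 6. Slc6a12 had 22.9 and 21.4 normalized reads in PIA+IL-27, 99.9 and 120.0 in PIA and 44.1 and 41.9 in Control, and its PIA+IL-27 libraries were both below Control. Slc6a13 had 496 and 172 in PIA+IL-27, 821 and 940.5 in PIA and 425 and 408 in Control. Aebp1, a collagen-binding protein of the extracellular matrix, had 562 and 184 in PIA+IL-27, 905 and 1690.0 in PIA and 469 and 555 in Control. In both genes PIA+IL-27 2 was the lowest library. PIA+IL-27 1 exceeded PIA+IL-27 2 in all 7 genes, and no gene differed over 2-fold between the Control replicates. The others were the dicarboxylate carrier Slc13a3, the organic cation carrier Slc22a2, the collagen gene Col7a1 and Scx, a transcription factor of tendon. Slc6a13 is also a marker of meningeal fibroblasts on the list used here. The other 2 listed markers did not share its pattern: Col1a1 had 1041 and 762 in PIA+IL-27, 2423 and 2204 in PIA and 3858 and 1461 in Control. Col3a1 had 1390 and 935.0 in PIA+IL-27, 3706 and 1585 in PIA and 2548 and 2322 in Control.

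The last 11 genes were enzymes and others. Ripor3 had 9.38 and 1.94 normalized reads in PIA+IL-27, 42.3 and 26.2 in PIA and 9.79 and 8.57 in Control. Sphk1 makes the lipid signal sphingosine 1-phosphate, and Qprt makes a precursor of NAD from the tryptophan product quinolinic acid. Sphk1 had 170.1 and 209 reads in PIA and Qprt had 23.1 and 25.1. Gstm2 and Gstp2 are glutathione transferases, Hpn and Cela1 are serine proteases, and Psd4 is an exchange factor for ARF6. Exoc3l4, Mrgprf and Gm40814 complete the group, and the counts of Gm40814 and Gstp2 were not whole. Its median of PIA over Control was 2.38, the lowest of the 10 groups, and its PIA+IL-27 mean was a median of 0.331 times PIA.

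At the limit of the rule, the members just inside 1.5 were Slc11a1 (1.51), Il20rb (1.52) and Cyth4 (1.52), given above. Just outside were Gpsm3 (1.49) with 49.01 and 34.95 normalized reads in PIA+IL-27, 94.2 and 106 in PIA and 62.7 and 34.3 in Control, Adamtsl4 (1.48) with 30.2 and 15.5 in PIA+IL-27, 45.2 and 50.2 in PIA and 26.4 and 24.8 in Control, and Wnt6 (1.47) with 50.1 and 0 in PIA+IL-27, 85.5 and 74.2 in PIA and 25.5 and 18.1 in Control. With no gene set aside by name, the same rule with PIA+IL-27 on top gave 21 genes and with Control on top 2, against 78 with PIA on top. PIA lay below both other groups by the same fold and floor in 10 genes. With a fold of 2 in place of 1.5, 13 of the 60 genes remained.

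The choice of genes set no order between PIA+IL-27 and Control, and this comparison was tested. The choice did hold every library of both groups below the lower PIA library, which kept out genes with either group near PIA. Counts of the 60 genes set beside the table are therefore not independent of the choice. None of the 60 genes passed the test. With edgeR's quasi-likelihood test and Benjamini-Hochberg adjustment over 3216 genes, 10 genes of the table were called (0.311%) and 0 of the 60. At an unadjusted p under 0.05 the table held 92 genes (2.86%), and again 0 of the 60 were among them. DESeq2 called 1 gene of the table and 0 of the 60. The smallest adjusted p among the 60 was 0.835. The fitted log2 fold change of PIA+IL-27 over Control was above 0 in 21 genes and below 0 in 39, with a median of -0.17, while the median of all genes tested was 0.55.

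The ends of this range were a regulator and a GTPase at the top and 2 genes at the bottom. Batf2 was at 1.19 ± 1.38 (log2 fold change ± SE) and Ifi47 at 1.11 ± 0.977, while Slc6a12 was at -0.95 ± 1.001 and C1s1 at -0.75 ± 1.03. Each SE was derived as the size of the log2 fold change divided by the square root of the test's F statistic. The standard errors over the 60 genes ran from 0.842 to 1.38 on the log2 scale, so that a gene could be well above or below Control without passing the test. The missing calls do not show that the genes were equal in PIA+IL-27 and Control.

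**Figure D3:**
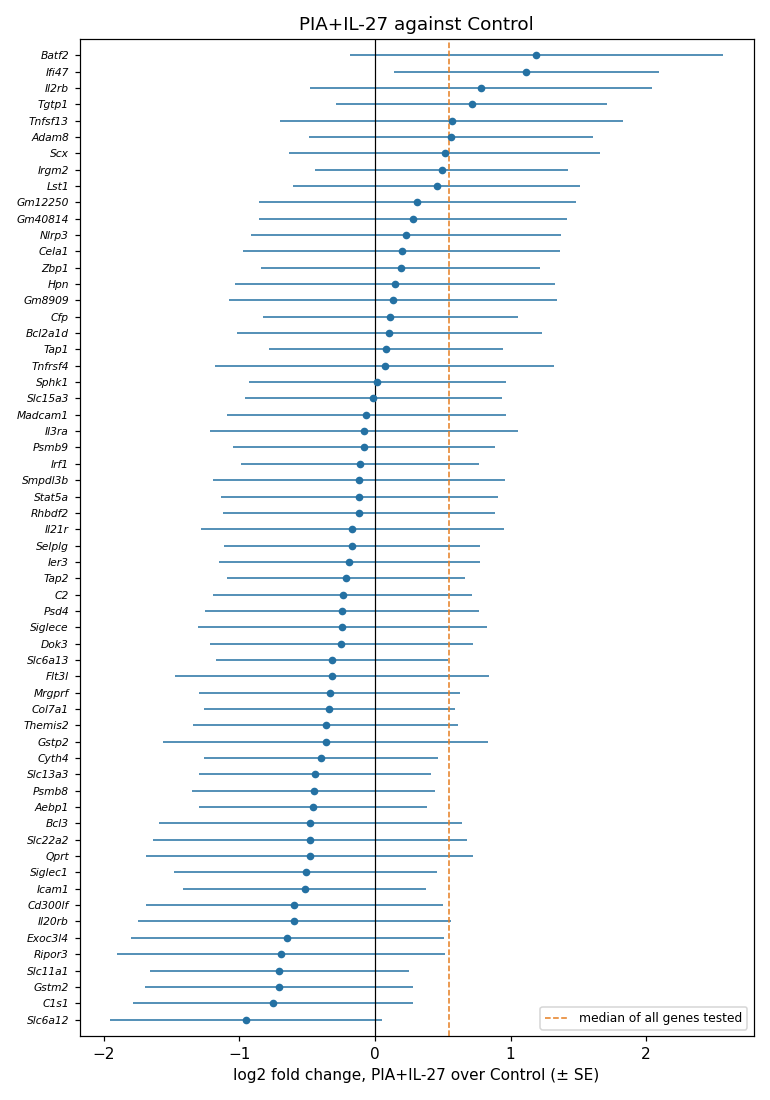
Fitted log2 fold change of PIA+IL-27 over Control for the 60 genes (points) with standard errors derived from the F statistic (lines). The dashed line is the median of all genes tested, 0.55, and most of the 60 points lie left of it, from Batf2 at 1.19 down to Slc6a12 at -0.95.

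By the libraries themselves, Batf2, Ifi47 and Scx, 3 of the 60 genes, had both PIA+IL-27 values above both Control values, while 23.0% of all listed genes did so. Both values lay below in 4 genes, Slc6a12, Flt3l, Gstm2 and Exoc3l4, while 7.5% of listed genes did so. In the other 53 genes the groups overlapped. The rule left out genes with a PIA+IL-27 or Control library near or above PIA. Over all listed genes the mean of PIA+IL-27 was a median of 2.23 times that of PIA. The shares of the 60 genes and of the table, here and in the authors' listing, are therefore not directly comparable. The authors' deposited table listed 1 of the 60 genes as higher in PIA+IL-27 than in Control, Ifi47, against 13.3% of all genes, and none as lower, against 8.57%. The same table listed 52 of the 60 as higher in PIA than in Control (18.0% of all genes) and 58 as lower in PIA+IL-27 than in PIA (18.2%), which are the contrasts used in the choice. In the edgeR fit of those contrasts, 0.218% of genes were called in PIA against Control and 0.435% in PIA+IL-27 against PIA.

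The scaling of the libraries moves the comparison of PIA+IL-27 with Control. Under TMM factors, which centre all genes at 0.00, the median of the 60 genes was -1.16; none of them lay above Control in both libraries (0 genes), and 16 lay below, while 15.5% of listed genes lay above and 16.2% below. The test still called 0 of the 60. Without Control 1 the median was 0.34, and without PIA+IL-27 1 it was -0.47. The direction of the 60 genes as a group is therefore not settled by these libraries.

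Replicates of 1 group differed in a shared way. Control 1 was higher than Control 2 in 50 of the 60 genes, and more than 2-fold higher in 21, while Control 2 was never more than 2-fold higher. Over the whole table it was the reverse: Control 2 was higher in 75.1% of genes, and over 2-fold higher in 2131. The rule takes the highest library outside PIA, so it tends to leave out genes with a high Control 2. The contrast with the table is therefore not independent of the choice of genes. PIA+IL-27 1 was higher than PIA+IL-27 2 in 44 of the 60, 18 of them over 2-fold, and in 2474 of all 3733 listed genes. The PIA replicates were closer: PIA 2 was higher in 34 and PIA 1 in 26, with 6 genes over 2-fold apart, which the rule favours since it takes the lower PIA library. The highest library outside PIA was Control 1 in 32 genes, PIA+IL-27 1 in 21, PIA+IL-27 2 in 5 and Control 2 in 2.

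The functional groups differed in which replicate was high. Control 2 over Control 1 had a median log2 ratio of -1.41 in the peptide processing genes and -1.08 in the interferon-inducible effectors, but -0.07 in the transporters and matrix genes. In PIA+IL-27, replicate 2 was higher in 4 of 5 interferon-inducible effectors, with a median log2 ratio of 0.90, while replicate 1 was higher in all 7 transporters and matrix genes, with a median of -0.91. Within PIA, replicate 2 was higher in all 3 regulators of the interferon response and replicate 1 in all 4 NF-kB and inflammasome genes. These are counts of few genes in 2 libraries a group and were not tested.

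**Figure D4:**
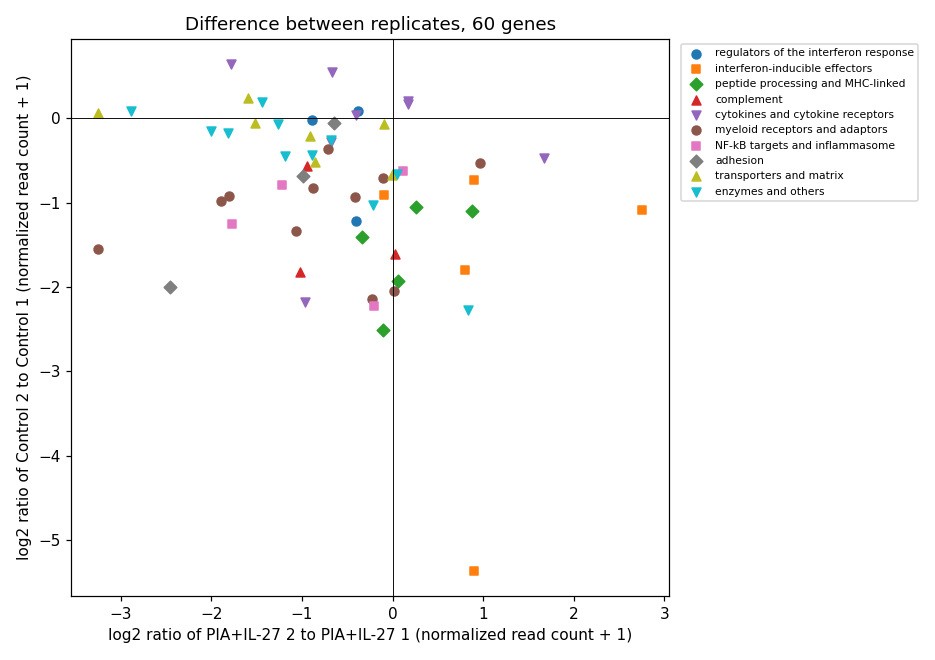
Log2 ratio of replicate 2 to replicate 1 in PIA+IL-27 (horizontal) and in Control (vertical) for the 60 genes, on normalized reads plus 1, with a colour and symbol for each functional group. Most points lie low and to the left, where replicate 1 is higher in both groups, and 4 of 5 interferon-inducible effectors lie to the right of 0; the lowest point is Zbp1, with 0 reads in Control 2.

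The 60 genes also shared features that the rule did not use. Their longest coding transcripts had a median GC content of 55.2% (58 genes with a transcript, range 43.5 to 63.6%), against 44.9% over the listed genes, and 56 of 58 were above the median of the table. They were shorter, with a median of 2214.5 bases against 3594. Over 3545 listed genes the log2 ratio of PIA to Control was higher at higher GC (Spearman's rho 0.363, across genes of the same 6 libraries) and the ratio of PIA+IL-27 over PIA was lower there (-0.637), so that GC-rich genes of the table tended to be higher in PIA. Within the 58 genes rho was -0.20 and 0.05. When the GC trend was removed from the ratios, 32 genes met the rule, 13 of them from the 58. Those 13 were C2, C1s1, Slc6a12, Ifi47, Tgtp1, Irgm2, Zbp1, Il3ra, Nlrp3, Bcl2a1d, Themis2, Cd300lf and Siglece. Irf1, Psmb8, Psmb9, Tap1 and Tap2 were not among them.

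**Figure D5:**
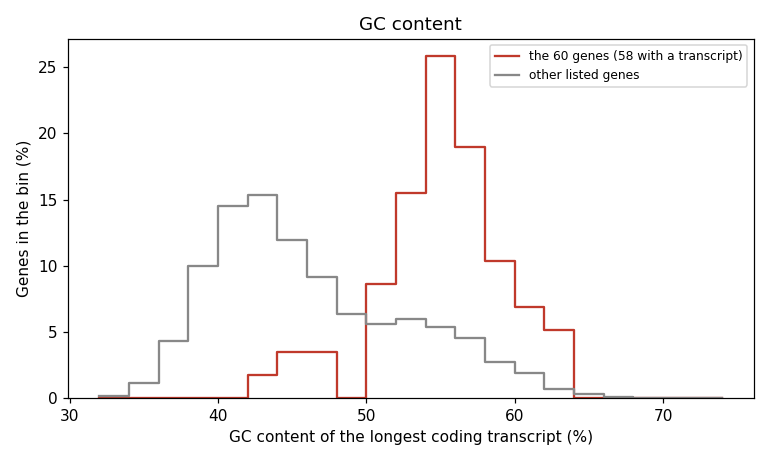
GC content of the longest coding transcript (horizontal, %) of the 60 genes, 58 of which had a transcript, and of the other listed genes, as the percentage of genes in each bin (vertical). The 60 genes lie mostly above 50%, around a median of 55.2%, and the other genes peak below 45%.

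On the chromosomes, 13 of the 60 genes lay on chromosome 11 (21.7%, against 6.40% of listed genes) and 9 on chromosome 17 (15.0%, against 5.33%). The genes on chromosome 11 included Irf1 and all of Gm12250, Irgm2, Ifi47 and Tgtp1, and those on chromosome 17 the 4 peptide processing genes, C2, Lst1 and Ier3. In RefSeq order 4 pairs were direct neighbours: Psmb9 with Tap1, Tap1 with Psmb8, Psmb8 with Tap2, and Slc6a13 with Slc6a12.

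The hallmark gene sets written in the deposited table named 29 of the 60 genes and 816 listed genes. The interferon gamma response held 9 of the 29 (31.0%, against 9.56% of listed genes): Icam1, Il2rb, Irf1, Psmb9, Psmb8, Tap1, C1s1, Zbp1 and Batf2. Signalling by TNF through NF-kB held 8 (27.6%, against 6.13%), among them Bcl2a1d, Bcl3, Ier3 and Sphk1. Allograft rejection also held 8 (27.6%, against 8.82%), and the interferon alpha response (5.51% of listed genes) and the inflammatory response (9.19%) held 6 each (20.7%). Every other set held at most 4.

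Of the wider pathway lists with the 60 genes left out, edgeR called no gene in PIA against Control. At an unadjusted p under 0.05 there were 0 to 4 genes of a list, and 6.28% of all genes tested. The highest counts were 4 of 7 tested acute phase genes and 3 of 17 tested complement and phagocytosis genes. With the 60 left out, 9.47% of listed genes had both PIA libraries above the other 4. B2m, the light chain of MHC class I, and Tapbp, which links it to the peptide pump, both did so. B2m had 976 and 636 normalized reads in PIA+IL-27, 1366 and 1071 in PIA and 592 and 415 in Control, and Tapbp had 843 and 859 in PIA+IL-27, 1796 and 1777 in PIA and 1308 and 797 in Control. The pattern was also present in 4 of 10 other JAK, STAT and IRF genes, 7 of 16 NF-kB and Toll-like receptor genes, 7 of 18 cytokines and receptors, 8 of 17 complement and phagocytosis genes and 5 of 8 adhesion and vessel genes. It was present in 3 of 30 other interferon effectors, near the share of the table, and in 0 of 8 acute phase genes. The lists were drawn up with earlier results of these data known. In PIA+IL-27 against PIA, 4 acute phase genes, Saa3, Hp, Lcn2 and Steap4, were called lower and no gene of another list was called. Without PIA 1, without either Control library, and with TMM or median-of-ratios factors no gene of the table was called in that comparison. The 8 acute phase genes summed to 552 and 195 in PIA+IL-27, 7259 and 535 in PIA and 1146 and 676 in Control, high in PIA 1 alone.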

How the data were processed

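Total RNA of mouse hippocampus was sequenced at BGI Genomics, per the labels' protocols. Not given in the sources used here are the aligner, counter, strand, genome build and test. The 1 deposited table holds 3733 genes. Per the file headers, the authors deposited TPM and FPKM per library, read counts (estimated counts, since 11.3 to 13.3% of them per library were not whole), normalized read counts (a signal, which equals the count divided by 1 factor per library of 0.917 to 1.05 in 100% of genes within 1e-06), and a log2 fold change with a Q value per comparison. The genes came from the normalized read counts.

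Counts were rounded and tested with edgeR 4.0.16 (quasi-likelihood, R 4.3.3) in 1 fit of all 6 libraries, with the authors' factors, filterByExpr by group and Benjamini-Hochberg adjustment at 0.05; DESeq2 1.42.0, limma 3.58.1 on log2(TPM + 1) and log2(TPM + 0.1), other factors and samples left out were alternatives. The files carry no column of other samples. GC content and length come from the longest coding transcript of the given reference, and promoters and gene neighbours from RefSeq tables. Values in full were given for genes on the pathway lists, the 10 largest ratios, the 5 highest TPM and those at the limit of the rule. Members, lists and functional groups were chosen with earlier results of these data known, and the lists of cell markers likewise. The genes named in other places were chosen after their values were seen. The labels' replicate numbers did not pair the samples.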

Additional observations from a re-analysis of the deposited data

How the results depend on the processing

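The number of genes that met the rule was 60 and moved to 139 at the lower fold tried, 13 at a fold of 2, 36 at a floor of 50 reads, 98 with TMM factors, 28 with TPM for the fold, and, chosen after seeing the data, 94 with median-of-ratios factors and 32 with the GC trend removed. Of the 60, 42 met it with TMM, 40 with median-of-ratios and 13 with the GC trend removed, and 10 met it under TMM, TPM and GC removal alike. Leaving out 1 library gave 67 to 269 genes, with 269 without PIA 2, 255 without PIA 1, 178 without Control 1, 108 without PIA+IL-27 1 and 67 without PIA+IL-27 2. In PIA+IL-27 against Control, 10 genes of the table were called; 0 were called with TMM factors, 0 with median-of-ratios factors, 1 with DESeq2, 2 with limma on log2(TPM + 1), 5 on log2(TPM + 0.1), 1 with only these groups fitted, 3 with the replicate block, 3 with a term for PIA 2 and PIA+IL-27 1 (added after seeing the data), and 0 to 7 when 1 library was left out (0 without either Control library, 2 without PIA+IL-27 1). Members called were 0 in every one of these settings. Over the 60 genes the median of -0.17 on the log2 scale was -1.16 with TMM and -1.14 with median-of-ratios factors and ran from -0.47 to 0.34 when 1 library was left out. With TMM factors 0 of the 60 lay above and 16 below Control in both libraries, against 3 and 4 with the authors' factors; of all 3733 listed genes, 579 lay above and 604 below with TMM factors.

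Samples with the same replicate number deviated from their group means with a correlation of -0.227 between PIA+IL-27 and PIA, 0.150 between PIA and Control and 0.0579 between PIA+IL-27 and Control, so the numbers were not taken to pair the samples. In PIA+IL-27 against PIA the 14 called genes were 4 with the replicate block and 2 with PIA 2 paired to PIA+IL-27 1, which is the same term as above. They were 0 with TMM factors, with median-of-ratios factors, without PIA 1 and without either Control library, and 3 to 7 without 1 of the other libraries. With 2 libraries a group and low counts in many of the 60 genes, small differences were not detectable.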
